A study of Arabidopsis thaliana with 9 samples.

Results

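The transcripts of 4 receptor kinases of the FERONIA type and of 3 RALF peptides were followed in Arabidopsis seedlings. The receptors were FER (AT3G51550), THE1 (AT5G54380), HERK1 (AT3G46290) and HERK2 (AT1G30570), and the peptides were RALF1 (AT1G02900), RALF23 (AT3G16570) and RALF33 (AT4G15800, RALFL33 in RefSeq). The genes were chosen by locus name, and all 7 were found among the 27647 loci of the expression table. Messenger RNA had been sequenced from whole Arabidopsis thaliana seedlings in 9 libraries, 3 per group. The first group was MIR394A OE, seedlings overexpressing the microRNA gene MIR394A. The second was the accession Col-0 grown with 2 µM Brz, a name that the labels do not spell out. The third was Col-0 with no overexpression named. The MIR394A OE and Col-0 groups had 0 µM Brz, so MIR394A OE and Brz-treated Col-0 differ both in genotype and in treatment. Seeds of every group spent 4 days at 4 °C before germination at 22 °C under 16 h of light a day, and the seedlings were 5 days old at harvest. The labels do not give the promoter of the overexpressor, whether it was 1 line, or whether replicates were separate growths, so the p-values rest on a spread among libraries that may be technical. RNA of a whole seedling cannot tell fewer cells of a type from less RNA per cell.

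FER and its relatives carry a malectin-like domain outside the cell and a kinase inside it, and they act in cell growth, in the surveillance of the cell wall, in root hairs and in immunity. RALFs are small secreted peptides that many of these receptors bind, often together with a GPI-anchored co-receptor of the LORELEI family, and RALF1 acting through FER is known for raising the pH of the cell wall and slowing root growth. Growth control by THE1, HERK1 and HERK2 has been linked to the brassinosteroid hormones, and RALF23 is known as a gene whose transcript brassinosteroid lowers.

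Mature RALF peptides are released from the carboxy-terminal end of a longer precursor, so the last coding bases are shown to compare the 3 peptide genes and to show how far their reads can be told apart. They were read from the RefSeq genome TAIR10.1, end with the stop codon, and carry in capitals the bases that differ from the aligned base of RALF23. They lie at chr3:5645009-5645164 on the plus strand for RALF23, at chr4:8985113-8985265 on the plus strand for RALF33 and at chr1:653976-654128 on the minus strand for RALF1.
RALF23: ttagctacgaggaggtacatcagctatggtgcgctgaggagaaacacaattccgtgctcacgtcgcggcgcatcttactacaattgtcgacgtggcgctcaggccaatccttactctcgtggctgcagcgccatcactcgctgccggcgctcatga
RALF33: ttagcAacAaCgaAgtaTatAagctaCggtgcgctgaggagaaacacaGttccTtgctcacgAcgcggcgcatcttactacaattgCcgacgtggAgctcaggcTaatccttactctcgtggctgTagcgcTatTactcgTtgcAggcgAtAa
RALF1: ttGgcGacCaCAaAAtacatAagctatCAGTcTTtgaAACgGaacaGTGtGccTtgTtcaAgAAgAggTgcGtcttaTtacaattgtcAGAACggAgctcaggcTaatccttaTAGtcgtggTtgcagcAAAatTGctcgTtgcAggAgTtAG
In this stretch RALF33 was identical to RALF23 in 133 of 156 aligned columns (85.3%), and RALF1 in 100 of 156 (64.1%). Over the whole coding sequence RALF23 and RALF33 were 68.8% identical, and the longest run their transcripts shared was 23 nt. The 4 receptors were 54.8% to 61.0% identical in coding sequence, and no pair of their transcripts shared a run longer than 23 nt. In the RefSeq annotation HERK1 overlaps AT3G46300 on the opposite strand, which was listed at 0.49 to 1.68 FPKM, and an lncRNA that was not used here. RALF33 also overlaps an lncRNA, and whether reads were counted by strand is not given in the sources used here. The annotated transcripts of the receptors are 3191 to 3302 nt long, that of RALF1 854 nt and that of RALF33 1209 nt, while RALF23 has 3 transcripts of 663 to 1965 nt.

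Expression was deposited as FPKM, fragments scaled by transcript length and by library depth. Levels can be compared between genes only as far as the transcript length used holds. For RALF23, with transcripts of 663 to 1965 nt, that length is not given in the sources used here. The steps between low values fitted a depth of 21.4 to 21.9 M fragments per library, with 73.3% to 78.0% of the values used within 0.1 of a whole fragment. At this depth HERK1 stood on 214 to 679 fragments per library, HERK2 on 307 to 606 and FER on 1417 to 3604. RBCS1A, the small subunit of RuBisCO and a leaf gene, was listed at 13076 to 19192 FPKM, and SHV2, a root hair gene, at 1.32 to 6.20 FPKM. The loci of the microRNA precursors MIR394A and MIR394B were not among those listed, so the level of the overexpressed precursor could not be read.

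RALF23 had the highest level of the 7 genes in every library. It averaged 149.9 ± 26.2 FPKM in MIR394A OE, 347 ± 100.4 FPKM with Brz and 140.4 ± 13.1 FPKM in Col-0 (SD, n = 3 each). In Col-0, RALF33 and FER followed with overlapping ranges, then RALF1, then THE1, and HERK1 and HERK2 overlapped at the low end. In MIR394A OE the neighbours from RALF33 through FER and RALF1 to THE1 overlapped in turn, and HERK1 and HERK2 again had the lowest levels. With Brz the order changed in its middle: RALF33 and RALF1, which overlapped, both stood above FER, and THE1, HERK2 and HERK1 overlapped below it. These orders are of FPKM as deposited, with no correction for the trend on transcript length described below. All 7 genes passed the filter on low values, which asked for 3 or more libraries with 1 FPKM or more.

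**Figure D1:**
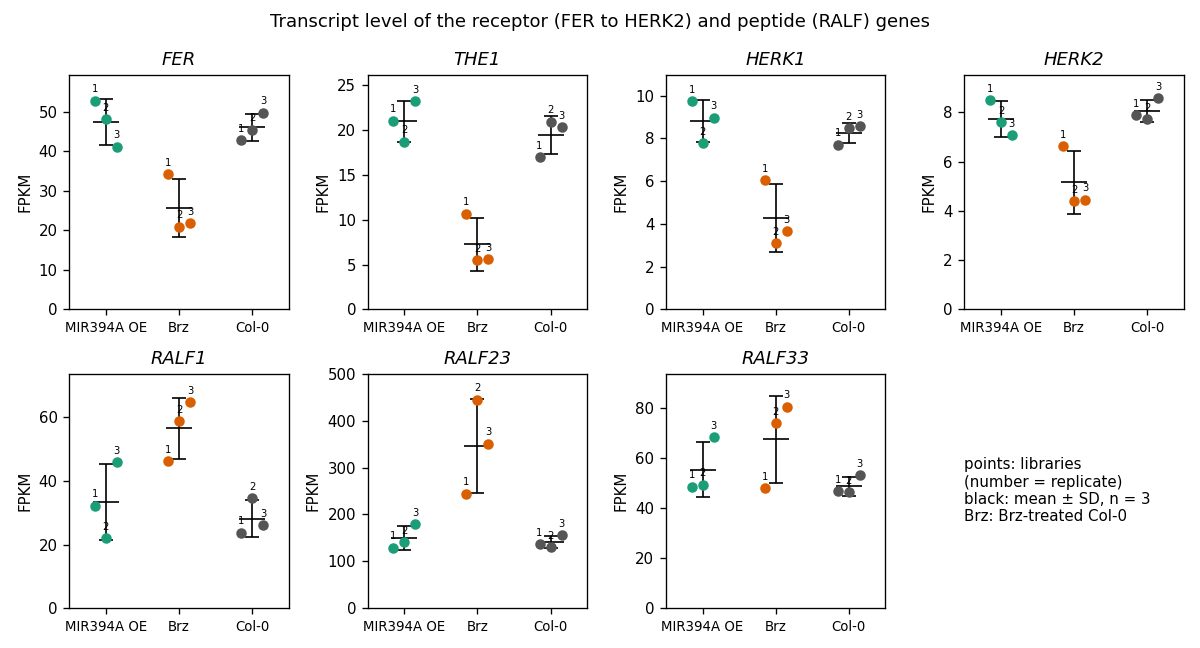
FPKM of the 7 genes in each library, with MIR394A OE, Brz-treated Col-0 and Col-0 from left to right; points are libraries and lines are group means. The 4 receptors lie lower and RALF1 and RALF23 higher in all 3 Brz libraries than in any Col-0 library, whereas RALF33 overlaps.

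All 4 receptor transcripts were lower in Brz-treated seedlings than in Col-0, but with a trend on transcript length removed from the libraries THE1 alone was still called. FER, the receptor of RALF1 and RALF23, had 34.1, 20.9 and 21.8 FPKM with Brz and 42.8, 45.5 and 49.8 FPKM in Col-0. The groups did not overlap, and the Brz library nearest to Col-0 was replicate 1. On the log2(FPKM + 1) scale, used for all fold changes here, FER differed by -0.85 ± 0.18 (SE, 95% interval -1.25 to -0.45; limma with Benjamini-Hochberg adjustment over 17662 genes, adjusted p = 0.0042).

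THE1, which acts in the response to damaged cellulose and binds the peptide RALF34, showed the largest receptor difference. It had 10.7, 5.50 and 5.61 FPKM with Brz, against 17.0, 21.0 and 20.3 FPKM in Col-0. Every Brz library was below every Col-0 library, and the mean was lower by 62.6%, with a log2 difference of -1.36 ± 0.22 (limma, adjusted p = 0.0011). HERK1, a receptor that acts with THE1 in cell elongation, had 6.06, 3.09 and 3.66 FPKM with Brz and 7.71, 8.47 and 8.56 FPKM in Col-0. Its groups did not overlap either, and it differed by -0.85 ± 0.20 (limma, adjusted p = 0.0069). HERK2, a receptor partly redundant with THE1 and HERK1 in growth, had 6.63, 4.39 and 4.45 FPKM with Brz, against 7.88, 7.72 and 8.58 FPKM in Col-0. It moved least of the receptors, by -0.58 ± 0.17 (limma, adjusted p = 0.021), again with no overlap. The HERK2 call was lost without Brz replicate 2 (adjusted p = 0.091), Brz replicate 3 (0.087), Col-0 replicate 1 (0.054) or Col-0 replicate 3 (0.066).

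The peptide transcripts lay on the other side. RALF23, a peptide that the protease S1P cleaves from its precursor and that dampens immune signalling through FER, had 245, 445 and 351 FPKM with Brz and 136, 130.0 and 155 FPKM in Col-0. All Brz libraries were above all Col-0 libraries, by 2.47-fold between means, and the log2 difference was 1.26 ± 0.20 (95% interval 0.83 to 1.69; limma, adjusted p = 0.0010). RALF1, the peptide that raises the pH of the cell wall through FER, had 46.2, 58.9 and 64.8 FPKM with Brz, against 23.7, 34.6 and 26.1 FPKM in Col-0. The groups were apart, and RALF1 rose by 0.99 ± 0.24 (95% interval 0.47 to 1.51; limma, adjusted p = 0.0075). RALF33, the nearest relative of RALF23 among these peptides, had 48.0, 74.1 and 80.7 FPKM with Brz and 46.8, 46.4 and 53.2 FPKM in Col-0. Brz replicate 1 lay inside the range of Col-0 and the other Brz libraries above it. The difference of 0.43 ± 0.20 did not pass the test (95% interval -0.00 to 0.86; limma, adjusted p = 0.098), but without Brz replicate 1 it was 0.66 and did (adjusted p = 0.0092).

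At an adjusted p under 0.05, 4 of the 7 genes were called lower with Brz, where 28.7% of all tested genes were called lower. A further 2 of 7 were called higher, where 13.2% of all tested genes were. The Brz and Col-0 libraries were apart for 6 of 7 genes, as they were for 50.1% of all tested genes. The median log2 difference of the receptors was -0.85 and that of the peptides 0.99, beside -0.22 for all tested genes. In all, 5065 genes were called lower and 2333 higher, or 3597 lower and 4318 higher under median-ratio scaling, under which 3 of the 7 genes were called lower, HERK2 no longer among them (log2 difference -0.34; limma, adjusted p = 0.072), and 2 higher. Without Brz replicate 1, which for each of the 7 genes was the Brz library nearest to the Col-0 mean, 4 genes were called lower and 3 higher, beside 40.6% and 13.1% of all tested genes.

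The differences between Brz and Col-0 followed transcript length across the whole table. Among 17530 genes with a RefSeq transcript length, Spearman's rho between length and the log2 difference was -0.67, a description across genes that share libraries. The median difference was 0.38 in the lowest quintile of length and -0.72 in the highest. The receptors are long and the peptides short, except that the transcripts of RALF23 run from 663 to 1965 nt. Among 875 genes with a median length of 3280 nt, close to that of the receptors, the median difference was -0.75 and the quartiles were -0.96 and -0.56. FER and HERK1, at -0.85 each, lay between them, HERK2 near the upper one and THE1, at -1.36, below the lower one. Whether the length trend arose in the seedlings or in library preparation was not tested.

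**Figure D2:**
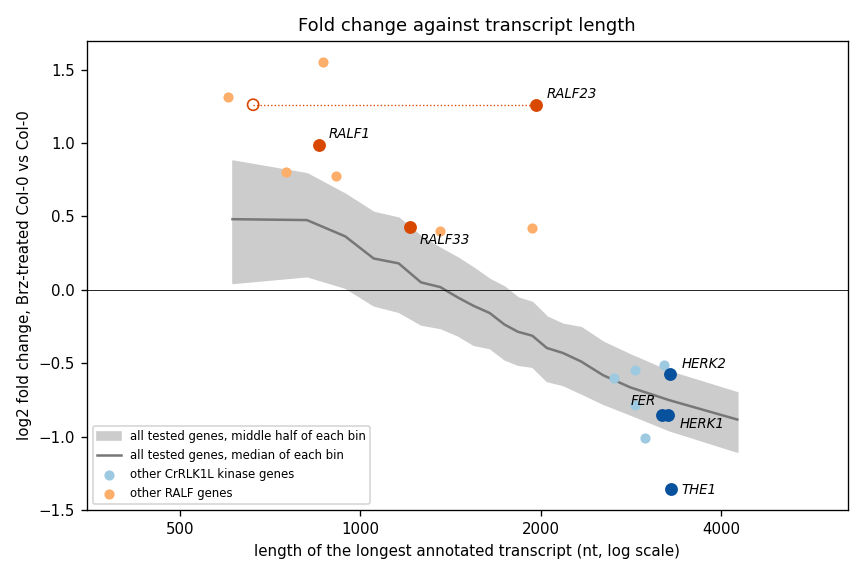
Log2 difference of Brz-treated Col-0 minus Col-0 against transcript length on a log axis, with the median and quartiles of length bins over all tested genes and the 7 genes marked; the open circle puts RALF23 at its shortest transcript. FER, HERK1 and HERK2 sit within the quartiles of genes of their length, HERK2 near the upper one, THE1 lies below them, and RALF1 and RALF23 above.

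With the trend removed from each library by a loess curve on log2 length, 1 of the 7 genes was called lower with Brz, beside 10.3% of all tested genes. This was THE1, at -0.62 ± 0.13 (95% interval -0.91 to -0.33; limma, adjusted p = 0.010). Again 2 of 7 were called higher, beside 13.2% of all tested genes, and these were RALF1 and RALF23. FER then differed by -0.14 ± 0.13 (95% interval -0.43 to 0.15; limma, adjusted p = 0.46) and HERK1 by -0.13 ± 0.12 (limma, adjusted p = 0.46). HERK2 changed sign, to 0.15 ± 0.12 (limma, adjusted p = 0.36). The trend that was subtracted came to between -0.71 and -0.73 for the receptors, so it was of the size of the FER and HERK1 differences themselves.

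RALF1 was at 0.62 ± 0.18 after the correction (limma, adjusted p = 0.036), its short transcript having taken 0.37 of the original difference. For RALF23 the corrected value depended on the transcript. It was 1.59 ± 0.27 with the longest one (limma, adjusted p = 0.0048) and 0.84 ± 0.20 with the shortest one (adjusted p = 0.016), a choice added after the data had been seen. RALF33 was at 0.32 and did not pass (limma, adjusted p = 0.29), and without Brz replicate 1 it was at 0.59 and did (adjusted p = 0.018). Over 23 alternative treatments of the data THE1 and RALF23 were called in all 23, with log2 differences between -1.63 and -0.57 for THE1 and between 0.84 and 1.94 for RALF23. RALF1 was called in 22 of 23, FER and HERK1 in 19 each, HERK2 in 13 and RALF33 in 2. FER, HERK1 and HERK2 were not called in any setting with the length trend removed, and the other settings did not remove that trend.

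**Figure D3:**
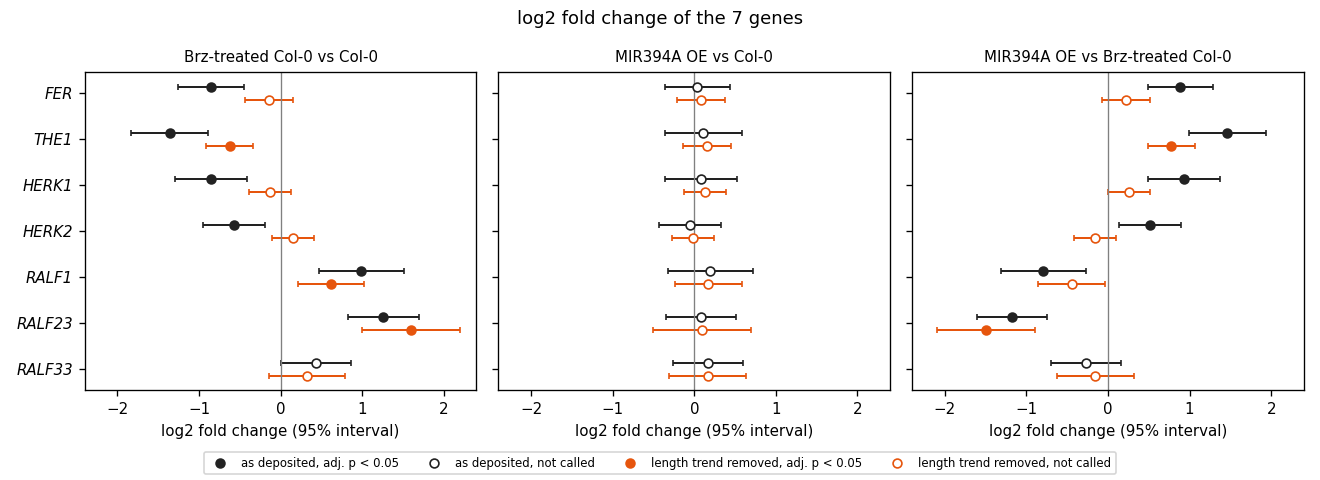
Log2 differences of the 7 genes with 95% intervals for MIR394A OE or Brz-treated Col-0 against Col-0 and for MIR394A OE against Brz-treated Col-0, with FPKM as deposited and with the length trend removed. The intervals of FER, HERK1 and HERK2 for Brz include 0 once the trend is removed, whereas those of THE1, RALF1 and RALF23 do not.

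Ratios of 2 transcripts within a library do not depend on its scaling. RALF23 exceeded FER 7.17-, 21.3- and 16.1-fold with Brz, against 3.18-, 2.86- and 3.12-fold in Col-0. The Brz ratios were all higher, with replicate 1 again the nearest to Col-0, and the log2 difference was 2.15. With the length trend removed, on the log2(FPKM + 1) scale, it was 1.74 by the longest transcript of RALF23 and 0.93 by the shortest. RALF1 relative to FER averaged 2.38 ± 0.89 with Brz and 0.61 ± 0.13 in Col-0 (SD, n = 3 each), and RALF33 relative to FER averaged 2.88 ± 1.28 with Brz and 1.06 ± 0.04 in Col-0. The log2 differences of these ratios were 1.89 for RALF1 and 1.32 for RALF33, or 0.76 and 0.47 with the length trend removed. The peptide with the lowest level of the 3 in Col-0, RALF1, thus stood below FER there and above it with Brz.

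Receptors of nearly equal length can be set against each other with little room for a length trend. THE1 relative to FER was 0.31, 0.26 and 0.26 with Brz and 0.40, 0.46 and 0.41 in Col-0. THE1 relative to HERK1 was 1.76, 1.78 and 1.53 with Brz, against 2.20, 2.47 and 2.37 in Col-0. Both ratios were lower in every Brz library than in any Col-0 library, by 0.61 and 0.48 on the log2 scale. RALF23 relative to RALF33 was 5.10, 6.01 and 4.35 with Brz and 2.91, 2.80 and 2.91 in Col-0, again without overlap. Its log2 difference was 0.83, and with the length trend removed it was 1.27 by the longest transcripts and 0.43 by the shortest. RALF23 relative to RALF1 overlapped between the groups (two-sided exact permutation test, p = 0.6). For the other 7 of the 8 ratios compared between Brz and Col-0, the exact permutation test gave p = 0.1, the smallest that 3 against 3 libraries allow, or 0.18 after adjustment over 24 tests, so none could pass 0.05.

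**Figure D4:**
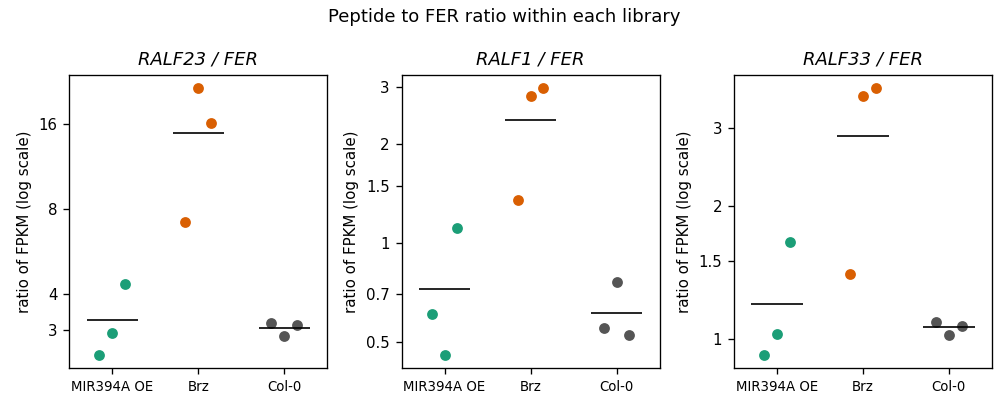
Ratio of RALF23, RALF1 and RALF33 to FER in each library on log axes that differ between panels, with MIR394A OE, Brz-treated Col-0 and Col-0 from left to right and lines at the group means. The 3 Brz libraries lie above all Col-0 libraries in each panel, and MIR394A OE replicate 3 lies above the other MIR394A OE libraries.

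In MIR394A OE none of the 7 genes was called against Col-0, beside 0.034% of all tested genes, which was 6 genes, with 401 at an unadjusted p under 0.05. FER had 52.8, 48.1 and 41.2 FPKM in MIR394A OE, spanning its Col-0 range of 42.8 to 49.8 FPKM. THE1 had 21.1, 18.7 and 23.3 FPKM in MIR394A OE, against 17.0 to 21.0 FPKM in Col-0. HERK1 (9.73, 7.79 and 8.97 FPKM) and HERK2 (8.50, 7.59 and 7.08 FPKM) in MIR394A OE likewise overlapped Col-0. The receptor differences lay between -0.06 and 0.11 on the log2 scale (limma, adjusted p = 1 for each), and the interval of FER ran from -0.36 to 0.44. These intervals leave room for changes of about that size and do not show that the levels were equal.

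The peptides varied more among the MIR394A OE libraries. RALF1 had 32.2, 22.0 and 45.9 FPKM, RALF23 129, 141 and 179 FPKM, and RALF33 48.6, 49.4 and 68.3 FPKM in MIR394A OE. Replicate 3 was the highest for all 3 peptides. The log2 differences from Col-0 were 0.20 for RALF1, 0.08 for RALF23 and 0.17 for RALF33, and without MIR394A OE replicate 3 those of RALF1 and RALF23 turned to -0.06 and -0.05. The libraries of MIR394A OE and Col-0 were apart for 0 of 7 genes, beside 5.77% of all tested genes.

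Set against Brz-treated seedlings, MIR394A OE had 4 of 7 genes called higher, beside 25.8% of all tested genes, and 2 of 7 called lower, beside 12.0%. This comparison shares its Brz libraries with the one above. THE1 was higher by 1.46 ± 0.22 and FER by 0.89 ± 0.18 (limma, adjusted p = 0.0010 and 0.0039). RALF23 was lower by a log2 difference of -1.18 ± 0.20 (limma, adjusted p = 0.0016) and RALF1 by one of -0.79 ± 0.24 (adjusted p = 0.022), while RALF33 at -0.26 did not pass (adjusted p = 0.30). With the length trend removed 1 of 7 was called higher, beside 9.35%, and 1 lower, beside 11.3%. These were THE1 at 0.78 (adjusted p = 0.0055) and RALF23 at -1.50 (adjusted p = 0.0070), or -0.77 by its shortest transcript (adjusted p = 0.025). The HERK2 call of this comparison (0.52; adjusted p = 0.035) held in 9 of 23 alternatives. Median-ratio scaling ended it (0.30; adjusted p = 0.10), as did leaving out any 1 of MIR394A OE replicates 1 and 2, Brz replicates 2 and 3 and Col-0 replicate 1.

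The remaining genes of the pathway were taken from a list of 67, of which 46 had values and 31 passed the filter on low values. With Brz 11 of the 31 were called lower than in Col-0 and 6 higher, or 3 and 2 with the length trend removed, and none was called in MIR394A OE against Col-0. Of all tested genes 28.7% were called lower and 13.2% higher, or 10.3% and 13.2% with the trend removed, so the 3 and 2 of 31 were no more than the background. Among further receptors of the FER family 5 of 13 were tested. All 5 were called lower with Brz (median -0.60) and none with the length trend removed (median -0.02). AT5G38990, a malectin-like receptor kinase, had 5.19, 3.35 and 4.58 FPKM with Brz and 9.68, 9.62 and 9.84 FPKM in Col-0. It differed by -1.01 ± 0.16 (limma, adjusted p = 0.0011), or -0.34 with the trend removed (adjusted p = 0.068). AT5G24010 was at -0.79, AT2G23200 at -0.60 and AT5G61350, known as ERULUS and needed for root hair growth, at -0.55. AT2G23200 averaged 1.11 FPKM with Brz and 2.21 FPKM in Col-0, and AT5G61350 0.52 and 1.24 FPKM. At such low levels the log2(FPKM + 1) scale understates the change. Under median-ratio scaling, which brought the median of all tested genes from -0.22 to 0.00, 3 of these 5 receptors were called lower, and under quantile normalization 1 was. Of 17662 tested genes 3597 and 3766 were called lower in these settings.

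Among further RALF peptides 6 of 31 listed were tested, and 5 were called higher with Brz, beside 13.2% of all tested genes. Their median was 0.79, or 0.59 with the length trend removed. RALFL32 had 46.4, 85.5 and 75.6 FPKM with Brz, against 19.8, 22.3 and 24.7 FPKM in Col-0. The groups were apart and the difference was 1.55 ± 0.24 (limma, adjusted p = 0.00093), or 1.19 with the trend removed (adjusted p = 0.0062). RALFL27 was at 1.32, RALFL31 at 0.80 and RALFL24 at 0.77, each called as deposited and not with the trend removed. RALFL34, the peptide that THE1 binds, was at 0.40 (limma, adjusted p = 0.039), and at 0.39 with the trend removed it did not pass (adjusted p = 0.15). RALFL22, whose profile as deposited was the nearest to that of RALF33, was at 0.42 as deposited and did not pass (limma, adjusted p = 0.094). At 0.74 with the trend removed it did (adjusted p = 0.046), a value that rests on its longest transcript of 1933 nt. Under median-ratio scaling, and without Brz replicate 1, all 6 of these peptides were called higher, beside 4318 and 2317 of 17662 tested genes. All 6 had a positive difference as deposited, under median-ratio scaling, under quantile normalization and with the trend removed. Of the 17662 tested genes 6226, 8864, 8401 and 8853 had a positive difference, in the same order.

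The GPI-anchored co-receptor LLG1, which binds RALF23 together with FER, averaged 117 ± 6.60 FPKM with Brz and 106 ± 7.58 FPKM in Col-0 and was not called (log2 difference 0.14; limma, adjusted p = 0.33). LLG3 averaged 0.90 FPKM with Brz and 1.71 FPKM in Col-0 and was not called either (-0.48; adjusted p = 0.10). With the length trend removed LLG1 was at -0.19 and LLG3 at -0.23, neither of them called. With the trend removed by the shortest transcript 1 of these 2 co-receptors was called lower, beside 1857 of 17662 tested genes. The LRX proteins are wall-bound extensins that bind RALF peptides, and 4 of their 5 tested genes were called lower with Brz, 3 of them with the length trend removed. Of all tested genes 28.7% were called lower, or 10.3% with the trend removed. LRX3 had 19.6, 27.02 and 24.6 FPKM with Brz, against 96.3, 80.6 and 164 FPKM in Col-0. It was lower by a log2 difference of -2.16 ± 0.28 (limma, adjusted p = 0.00052), or -1.47 with the trend removed (adjusted p = 0.017). AT3G24480 was at -2.19, AT4G18670 at -1.89 and LRX2 at -1.45, whereas LRX1 at -0.73 did not pass (adjusted p = 0.14). Of 13 tested signalling and processing partners 2 were called lower and 1 higher with Brz, and none with the trend removed. With the trend removed by the shortest transcript the counts were 0 and 2, under median-ratio scaling 0 and 4, and under quantile normalization 1 and 3. Of 17662 tested genes 1857 were called lower and 2373 higher by the shortest transcript. Under median-ratio scaling 3597 and 4318 were, and under quantile normalization 3766 and 3730. BAK1, a co-receptor of immune and brassinosteroid receptors, was at -0.59 and S1P, the protease of the RALF23 precursor, at -0.54 (limma, adjusted p = 0.032). GRP7, an RNA-binding protein that FER phosphorylates, was at 0.69 (adjusted p = 0.0091). In MIR394A OE against Brz 9 of the 31 pathway genes were called higher and 5 lower, or 4 and 2 with the trend removed. Of all tested genes 25.8% were higher and 12.0% lower, or 9.35% and 11.3% with the trend removed, so the 9 of 31 lay near the background. The genes called higher were 4 receptors, 4 LRX genes (LRX3 at 2.11) and BAK1. Those called lower were 3 RALF peptides (RALFL27 at -1.41), GRP7 at -0.81 and CML38, a calmodulin-like protein, at -1.41 (limma, adjusted p = 0.020). CML38 had 0.34, 0.68 and 3.80 FPKM in MIR394A OE and 4.22, 3.19 and 8.33 FPKM with Brz, with overlap. With the length trend removed CML38 was at -1.14 and did not pass (limma, adjusted p = 0.057).

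**Figure D5:**
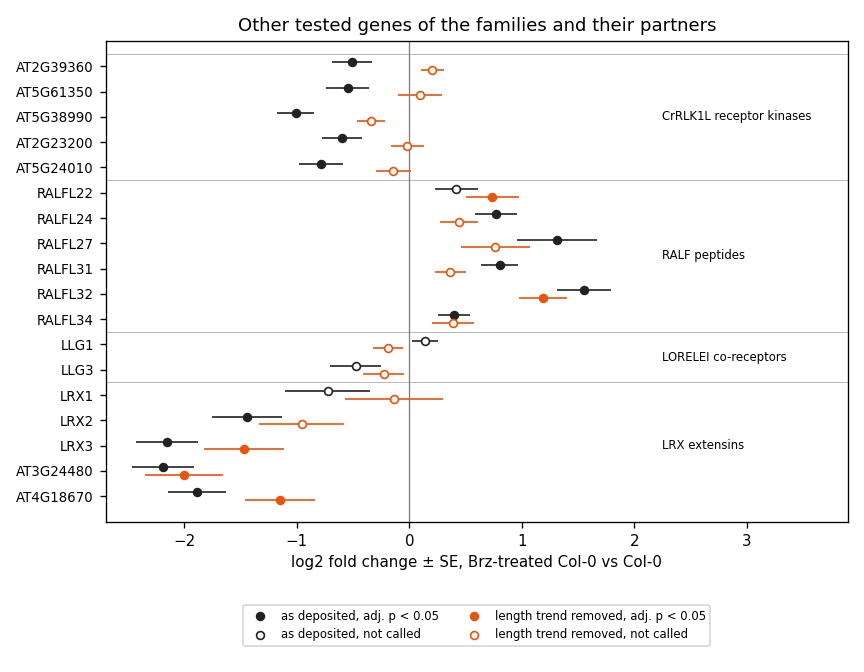
Log2 difference of Brz-treated Col-0 minus Col-0 with its SE for the other tested genes of the receptor family, the RALF peptides, the LORELEI co-receptors and the LRX extensins, as deposited (black) and with the length trend removed (orange), filled where called. With the trend removed the 5 receptors lie between -0.34 and 0.21, the RALF peptides stay above 0, and 4 of the LRX extensins lie below these receptors.

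The promoters of THE1 and RALF23, the 2 genes called in all 23 treatments of the data, are shown as the 250 bases before the annotated start in TAIR10.1, with the letters CANNTG, the E-box that several brassinosteroid-related factors can bind, in capitals. They lie at chr5:22080342-22080591 on the minus strand for THE1 and at chr3:5644343-5644592 on the plus strand for RALF23.
THE1: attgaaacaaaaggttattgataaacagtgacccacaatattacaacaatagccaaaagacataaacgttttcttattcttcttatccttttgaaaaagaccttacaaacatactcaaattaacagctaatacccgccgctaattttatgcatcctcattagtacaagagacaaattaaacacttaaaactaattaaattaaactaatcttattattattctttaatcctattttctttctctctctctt
RALF23: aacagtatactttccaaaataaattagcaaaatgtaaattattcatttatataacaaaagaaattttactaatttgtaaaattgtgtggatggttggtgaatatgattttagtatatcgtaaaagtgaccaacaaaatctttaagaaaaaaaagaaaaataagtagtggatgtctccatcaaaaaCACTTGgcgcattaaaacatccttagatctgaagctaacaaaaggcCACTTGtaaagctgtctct
On both strands of these windows RALF23 had 2 matches and THE1 0, FER had 1, HERK1 2 and RALF33 1, and 55.3% of 27443 promoters of the same length held at least 1. CGTGCG (1.57% of promoters), CGTGTG (5.37%) and CACGTG (6.49%), the last being a case of CANNTG, were found in 0 of the 7. These are matches of letters only.

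Profiles were compared by the root mean square difference of centred log2 values over the 9 libraries. Among the 7 genes FER and HERK1 were the nearest pair at 0.11, and THE1 was farther from FER at 0.30. The gene nearest to FER in the whole table was CEV1, a cellulose synthase, at 0.05. Nearest to THE1 were CLC-A, a chloride channel gene (0.10), PTAC2 and VLN4, and CLC-A stayed among the nearest 3 with the length trend removed. HERK1 was nearest to AT2G46780, AT4G19180 and D6PK, and HERK2 to SDH3-2, PRP39 and AT2G28390. RALF1 was nearest to AT5G43150, AT2G35810 and AT1G48750, and RALF23 to AT5G60680, MT2B and CAB2. HERK1 kept AT4G19180 among its nearest 3 with the trend removed, and none of the nearest 3 of FER, HERK2, RALF1, RALF23 and RALF33 was kept. RALF33 had RALFL22 as its nearest gene as deposited, at 0.07, with 14 nt as their longest run shared by their transcripts.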

How the data were processed

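Messenger RNA of whole seedlings was measured in 9 libraries. The authors deposited 1 table of FPKM values, per the file headers. The submitters' processing notes list Bowtie2 and HISAT. The genome build, the annotation and the FPKM program were not given in the sources used here. Of 27647 loci, 24331 had values and 27438 matched RefSeq TAIR10.1, which gave names, transcript lengths and sequences. FPKM summed to 736081 to 861647 per library.

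The 7 genes, the pathway list and the length correction were chosen with earlier results of these data known. FPKM are not counts, so limma 3.58.1 (R 4.3.3, intensity trend) was fitted to log2(FPKM + 1) of 17662 genes in all 9 libraries (3 groups, 6 residual degrees of freedom). This scale understates changes of low genes. Tests were two-sided, with Benjamini-Hochberg adjustment over the genes of a contrast. The length trend was a loess curve (span 0.5) per library on log2 length of the longest transcript. The 132 tested genes without a length were shifted by the library median.

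All 7 genes were named in each contrast. From the list, called genes were named, at most 4 per direction and group, with every tested co-receptor, and the 3 nearest profiles per gene. Genes outside that rule (LRX1, RALFL34, RBCS1A and SHV2) were chosen after their values were seen. The script was tested on simulated data. Alternatives were scaling, filters, pseudocounts, replicates left out, 2-group fits, a variance prior without trend and the replicate number as a block.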

Additional observations from a re-analysis of the deposited data

How the results depend on the processing

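With the length trend removed, whether by the longest transcript, by the shortest, or without Brz replicate 1, the genes called lower with Brz fell to 1 from 4, and those called in MIR394A OE against Brz to 2 from 6. HERK2 reversed there, to 0.15, 0.21 and 0.15 for Brz against Col-0 and to -0.16, -0.22 and -0.16 for MIR394A OE against Brz. The pathway genes called lower with Brz, 11 as reported, were 3, 4 and 2 in these settings, 7 under median-ratio scaling, 6 under quantile normalization, 7 with a filter at 5 FPKM, which tests fewer genes, and 7 at the lowest when 1 library was left out (Brz replicate 2 or 3). Those called higher, 6 as reported, were 2, 5 and 4 in the same settings and 10 under median-ratio scaling. Under that scaling 3597 of 17662 tested genes were called lower and 4318 higher. The causes were not tested.

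Same-numbered libraries did not deviate together from their group means (correlations across genes from -0.64 to 0.15). For differently numbered libraries the correlations ran from -0.22 (Brz replicate 1 with Col-0 replicate 3) to 0.55 (MIR394A OE replicate 3 with Col-0 replicate 2). Deviations from a mean of 3 libraries depend on each other, so these values cannot exclude a batch shared between groups. The replicate block alone left 4 genes called lower and 2 higher with Brz, and 5 called in MIR394A OE against Brz. The replicate block with the length trend removed left 1 lower and 1 higher, since RALF1 at 0.62 no longer passed (limma, adjusted p = 0.059), 2 in MIR394A OE against Brz, and 2 and 2 pathway genes. HERK2 was at 0.15 and -0.16 there.

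For MIR394A OE against Col-0, where nothing was called under any alternative, small differences changed sign when libraries were left out. With 1 library left out at a time the values ran up to 0.13 for FER, 0.45 for RALF1, 0.18 for RALF23 and 0.25 for RALF33. FER was at -0.01 without Col-0 replicate 1 and -0.04 without MIR394A OE replicate 1. RALF1 was at -0.06 and RALF23 at -0.05 without MIR394A OE replicate 3, and RALF23 was at -0.10 and RALF33 at -0.03 without both Col-0 replicate 2 and replicate 3 of MIR394A OE. In MIR394A OE against Brz the RALF1 call was lost without MIR394A OE replicate 1 or 2 or Brz replicate 2 or 3 (log2 difference -0.80 to -0.53), and RALF33 passed without Brz replicate 1 (-0.49; limma, adjusted p = 0.032).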
